A study of Mus musculus with 36 samples.

Results

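The antimicrobial and host-defence products of Paneth cells other than the alpha-defensins were followed in RNA-seq libraries of mouse small intestine. They are 7 genes of the 27179 gene IDs counted: Lyz1, Mmp7, Pla2g2a, Ang4, Itln1, Mptx1 and Mptx2. The genes were listed by name, as known Paneth cell products, with earlier results of these data known, and all 7 were present in the files and passed the filter on low counts.

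Paneth cells sit at the base of the small intestinal crypts beside the stem cells and release granules of antimicrobial proteins into the crypt lumen. In the mouse their granules hold alpha-defensins, which matrilysin (Mmp7) cuts into their active form, together with lysozyme, angiogenin 4, secreted phospholipase A2 and lectin-like proteins. Several of these products, among them Itln1 and Ang4, are also known from goblet cells, so they are not markers of Paneth cells alone.

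The mice were lnc13-KO-DQ8, which lack the long noncoding RNA lnc13, and lnc13-WT-DQ8, and all had been challenged with gluten. The labels give DQ8 as part of the genotype of both groups and do not spell it out. From each genotype RNA was sequenced from IELs (intraepithelial lymphocytes), LPLs (lamina propria lymphocytes) and whole tissue, with 2 libraries labelled as biological replicates in each of the 6 groups. Age, sex, the cells that lack lnc13 and whether animals were pooled are not given in the sources used here, and lnc13 itself was not analysed here. The other 24 samples of the series, from CD8 T cells, were not analysed here.

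The 12 libraries held 10186522 to 13620975 counted reads each, and the 7 genes together took 0.176% to 0.903% of them. The lymphocyte preparations were not free of epithelium. The summed level of 8 pan-epithelial genes was 9100 to 10340 CPM (reads of a gene in every 1000000 reads of its library, with library sizes adjusted by edgeR's TMM method) in IEL libraries, 8574 to 11760 CPM in LPL libraries and 18760 to 24030 CPM in tissue libraries. The summed level of 8 T cell genes was 501.7 to 2015 CPM in IEL libraries, 5.8 to 145.5 CPM in LPL libraries and 64.9 to 208.3 CPM in tissue libraries, so the T cell genes were low in the preparation labelled LPL. The LPL libraries also carried 5119 to 10430 CPM of 10 exocrine pancreas genes, against 16.3 to 88.5 CPM in tissue libraries. Genes of the distal small intestine, such as the bile acid transporter gene Slc10a2, summed to 269.3 to 495.9 CPM in IEL libraries. They summed to 161.4 to 307.9 CPM in LPL libraries and 6501 to 8163 CPM in tissue libraries. Genes of the proximal small intestine summed to 1408 to 2093 CPM in IEL libraries and 203.7 to 326.9 CPM in LPL libraries. In tissue libraries the proximal sum was 138.8 to 365.9 CPM. The genes of this sum did not move together between LPLs and tissue. The log2 difference in LPLs against tissue by edgeR was 7.05 for Onecut2 and 3.11 for Gata4. It was -0.71 for Cybrd1, -1.24 for Lct and -2.08 for Slc40a1. Some libraries stood apart. WT LPL replicate 1 had 67.8 CPM of Lyz2 and 5.93 CPM of the T cell gene Cd3e, against 1.17 to 3.98 CPM of Lyz2 and 0.346 to 1.82 CPM of Cd3e in the other LPL libraries, and replicate 2 of tissue differed from replicate 1 in both genotypes, with values given beside Ang4. In bulk RNA, fewer Paneth cells and less RNA per Paneth cell cannot be told apart, and the part of these differences in cell content and gut position in the results was not tested.

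Mptx1 and Mptx2 are a pair of related mucosal pentraxin genes on chromosome 1. Their levels did not run together over the 12 libraries (Pearson's r of log2 CPM -0.034), and their upstream sequences are shown for that reason. The first, chr1:174330268-174330517 on the plus strand, lies just before the start of Mptx1, and the second, chr1:173277757-173278006 on the minus strand, just before that of Mptx2 (RefSeq, GRCm38.p6, 250 bases each, 5′ to 3′). Capitals mark bases that differ from, or have no partner in, the other gene within the aligned stretch.
Mptx1: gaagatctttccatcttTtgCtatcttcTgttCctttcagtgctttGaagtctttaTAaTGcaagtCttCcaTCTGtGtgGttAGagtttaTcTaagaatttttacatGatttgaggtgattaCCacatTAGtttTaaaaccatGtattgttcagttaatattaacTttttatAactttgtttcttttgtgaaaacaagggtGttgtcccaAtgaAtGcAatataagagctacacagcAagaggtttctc
Mptx2: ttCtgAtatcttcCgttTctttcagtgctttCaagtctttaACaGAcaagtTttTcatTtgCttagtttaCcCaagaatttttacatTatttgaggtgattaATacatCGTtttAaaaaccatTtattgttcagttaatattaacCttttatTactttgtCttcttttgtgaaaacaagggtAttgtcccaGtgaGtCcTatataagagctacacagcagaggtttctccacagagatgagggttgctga
The sequences matched at 198 of 236 aligned columns (83.9% identity), with 30 mismatches and 8 gap columns. The motif CTTTGA, the core bound by TCF/LEF factors of the Wnt pathway, was searched on both strands as CTTTGA or TCAAAG. It stood in Mptx1 at positions -208 to -203 from the start, and Mptx2 differed there by G47C (the Mptx1 base, the position counted from 1 at the 5′ end of the printed Mptx1 window, then the Mptx2 base). The motif was present in 13.8% of 32817 windows of this length, so a match is common. Of the 7 windows listed for the 6 members with an entry, 2 held it, that of Mptx1 and 1 of the 2 windows of Mmp7.

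**Figure D1:**
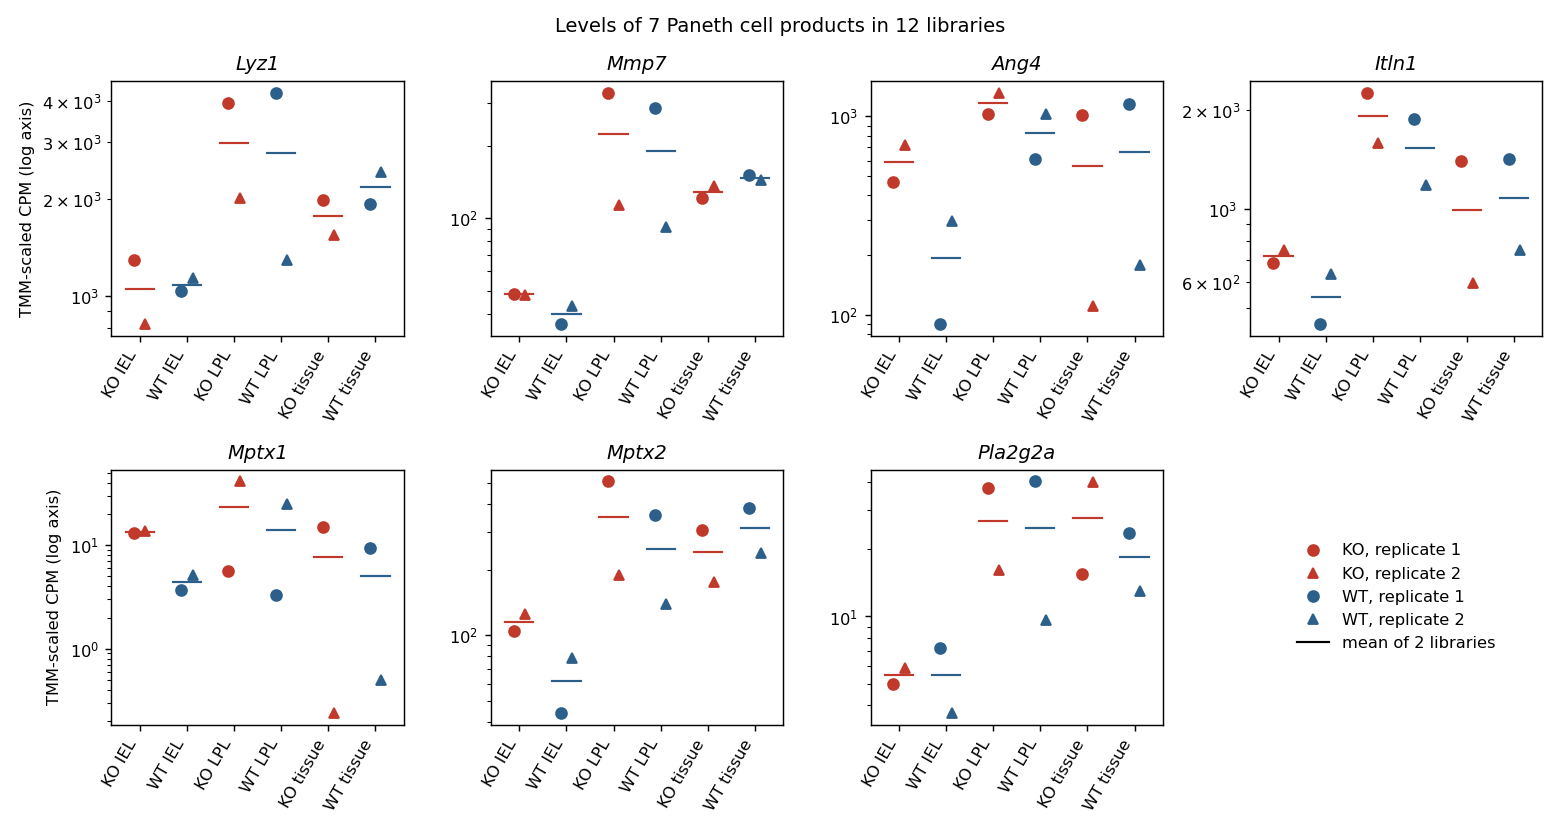
TMM-scaled CPM of each gene on a log axis in the 12 libraries. Red marks KO, blue marks WT, circles are replicate 1, triangles are replicate 2 and bars are group means of 2 libraries. Mmp7, Mptx2 and Pla2g2a are lower in all 4 IEL libraries than in every LPL and tissue library, and Mptx1 differs most between replicates in tissue and in LPLs.

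Lyz1 (gene ID 17110, GRCm38.p6 chromosome 10, 117287795 to 117292868) encodes the lysozyme of Paneth cell granules, which cuts bacterial cell walls. Its levels were 1290 and 819.9 CPM in KO IEL libraries and 1037 and 1138 CPM in WT IEL libraries (replicates 1 and 2, in this order throughout). They were 3941 and 2013 CPM in KO LPL, against 4251 and 1290 CPM in WT LPL. They were 1986 and 1541 CPM in KO tissue, against 1932 and 2418 CPM in WT tissue. The genotypes overlapped in each preparation, and the IEL libraries were at or below every LPL and tissue library. Its neighbour Lyz2, the lysozyme gene of macrophages, took 0.0905% to 7.96% of the reads assigned to the pair, the highest share in KO tissue replicate 2.

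Mmp7 (gene ID 17393, chromosome 9, 7692090 to 7699585) encodes matrilysin, the protease that activates alpha-defensins in mice. It had 48.4 and 47.9 CPM in KO IELs and 36.2 and 43.3 CPM in WT IELs. It had 331.8 and 113.6 CPM in KO LPLs and 287.6 and 91.4 CPM in WT LPLs. It had 121.3 and 135.8 CPM in KO tissue and 150.2 and 144.4 CPM in WT tissue. Every IEL library was below every LPL and tissue library, and in LPLs replicate 1 was about as far above replicate 2 in both genotypes (2.92-fold in KO and 3.15-fold in WT).

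Pla2g2a (gene ID 18780, chromosome 4, 138831857 to 138835189) is the mouse gene of a secreted phospholipase A2 that attacks bacterial membranes, and the annotation lists it as a transcribed pseudogene. It had 5.0 and 5.9 CPM in KO IELs, and 7.22 and 3.7 CPM in WT IELs. In LPLs it had 37.4 and 16.2 CPM in KO, against 40.2 and 9.67 CPM in WT. In tissue it had 15.6 and 39.8 CPM in KO, against 23.7 and 13.0 CPM in WT. It was low in all IEL libraries and the genotypes overlapped in each preparation. Its span lies inside that of Pla2g5 (138799247 to 138863562), whether reads were counted by strand is not given in the sources used here, and its values are therefore uncertain.

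Ang4 (gene ID 219033, chromosome 14, 51763892 to 51773590) encodes angiogenin 4, a ribonuclease that kills gut bacteria. It had 467.6 and 718.5 CPM in KO IELs, against 89.9 and 296.9 CPM in WT IELs. In LPLs it had 1026 and 1318 CPM in KO and 610.3 and 1032 CPM in WT. In tissue it had 1013 and 110.9 CPM in KO, and 1152 and 178.6 CPM in WT. Both KO IEL libraries were above both WT IEL libraries, while in tissue the replicates of a genotype lay 9.14-fold apart in KO and 6.45-fold apart in WT.

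Itln1 (gene ID 16429, chromosome 1, 171518123 to 171535325) encodes intelectin 1, a lectin that binds microbial sugars. It had 684.9 and 752.1 CPM in KO IELs, and 446.4 and 636.2 CPM in WT IELs. In LPLs it had 2266 and 1591 CPM in KO, and 1879 and 1185 CPM in WT. In tissue it had 1401 and 595.3 CPM in KO, and 1418 and 752.1 CPM in WT. Both KO IEL libraries were above both WT IEL libraries, and the genotypes overlapped in LPLs and tissue.

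Mptx1 (gene ID 66289, chromosome 1, 174330518 to 174332877) encodes mucosal pentraxin 1, of the family of C-reactive protein. It had 13.1 and 13.7 CPM in KO IELs, against 3.66 and 5.2 CPM in WT IELs. In LPLs it had 5.63 and 41.5 CPM in KO and 3.3 and 25.1 CPM in WT. In tissue it had 15.1 and 0.24 CPM in KO and 9.49 and 0.495 CPM in WT. The lowest library, KO tissue replicate 2, held 2 reads of the gene, and the highest, KO LPL replicate 2, held 672. The ratio of these libraries was 173-fold, with an exact 95% interval of 47.8-fold to 1434-fold that covers counting error only.

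Mptx2 (gene ID 100504232, chromosome 1, 173274461 to 173277756) encodes the related mucosal pentraxin 2. It had 104.6 and 125.1 CPM in KO IELs, against 44.0 and 78.9 CPM in WT IELs. In LPLs it had 510.7 and 189.5 CPM in KO and 359.4 and 138.9 CPM in WT. In tissue it had 305.3 and 176.5 CPM in KO and 386.6 and 238.2 CPM in WT. Its highest library was 11.6-fold above its lowest. The library with 2 reads of Mptx1 held 1474 reads of Mptx2, so few Mptx2 reads can have been assigned to Mptx1 there. How the authors' counting treated reads that match several genes is not given in the sources used here.

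In order of mean level, KO LPL came first for Lyz1, Mmp7, Ang4, Itln1, Mptx1 and Mptx2, and KO tissue came first for Pla2g2a. Of the 35 gaps between neighbouring groups in that order, 10 were larger than the larger of the SDs, 3 of them for Mmp7, 2 each for Lyz1 and Mptx2, 1 each for Ang4, Itln1 and Pla2g2a, and 0 for Mptx1. For Lyz1 the gap from KO tissue, at 1764 ± 314.5 CPM, to WT IEL, at 1087 ± 71.0 CPM, was larger than either SD (SD, n = 2 each).

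The IEL preparation held lower levels of most of these products than the LPL preparation. Of the 7 genes, 5 were lower in IELs than in LPLs by edgeR's quasi-likelihood test with Benjamini-Hochberg adjustment over 14716 genes at 0.05, against 7.92% of all genes lower and 11.5% higher. Mmp7 fell by 2.23 on the log2 scale (SE 0.4, adjusted p = 0.00594), and Pla2g2a fell by 2.24 (SE 0.53, adjusted p = 0.0196). The log2 difference was -1.81 for Mptx2 (SE 0.42, adjusted p = 0.0175), -1.46 for Itln1 (SE 0.33, adjusted p = 0.0166) and -1.42 for Lyz1 (SE 0.38, adjusted p = 0.0315). Ang4, at -1.53 (SE 0.75, adjusted p = 0.177), and Mptx1, at -1.25 (SE 1.11, adjusted p = 0.455), did not pass. The median over the 7 genes was -1.53, beside -0.03 over all genes tested.

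Those calls rested on few libraries. Mmp7 kept its call with any 1 of the 12 libraries left out. Without KO LPL replicate 1, KO IEL replicate 1 or KO IEL replicate 2, 1 of the 7 genes was called, without WT IEL replicate 1, 2 were, and without WT IEL replicate 2, 3 were. Without WT LPL replicate 1 the call on Lyz1 was lost too. All 5 differences stayed negative in each of these fits.

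**Figure D2:**
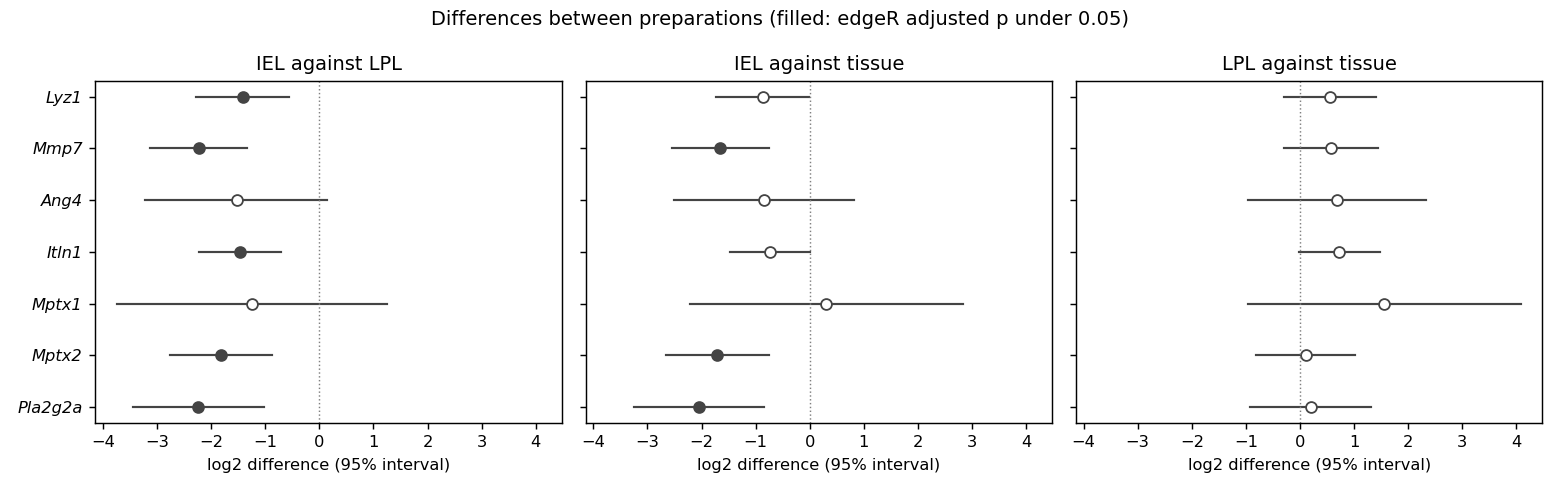
Log2 difference (points) with its 95% interval (lines) of each gene between preparations, from edgeR. Filled points have an adjusted p under 0.05: 5 genes for IEL against LPL, 3 for IEL against tissue and 0 for LPL against tissue.

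Against whole tissue, 3 of the 7 genes were lower in IELs, beside 23.1% of all genes lower and 21.9% higher. The log2 difference was -1.65 for Mmp7 (SE 0.39, edgeR adjusted p = 0.00921), -1.71 for Mptx2 (SE 0.42, adjusted p = 0.0104) and -2.04 for Pla2g2a (SE 0.53, adjusted p = 0.0135). Lyz1 (-0.87, adjusted p = 0.0892), Itln1 (-0.74, adjusted p = 0.0957), Ang4 (-0.85, adjusted p = 0.368) and Mptx1 (0.31, adjusted p = 0.838) did not pass. These calls depended on the scaling. When libraries were scaled to 8 pan-epithelial genes the median of all genes moved to 1.18, none of the 7 was called, and the log2 differences of Lyz1, Ang4 and Itln1 turned to 0.27, 0.27 and 0.39.

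Between LPLs and tissue, 0 of the 7 genes were called by edgeR, 0 passed at an unadjusted p under 0.05 and 0 were called by DESeq2, beside 27.3% of all genes higher and 28% lower by edgeR. All 7 log2 differences were above 0, with a median of 0.58 beside 0.03 over all genes, and they ranged from 0.11 for Mptx2 (95% interval -0.81 to 1.02) to 1.56 for Mptx1 (-0.96 to 4.09). Scaled to pan-epithelial genes, which moved the median of all genes to 1.08, 4 of the 7 were called higher in LPLs. These were Itln1 (1.79), Mmp7 (1.68), Lyz1 (1.67) and Mptx2 (1.19). Without KO tissue replicate 1, 2 of the 7 were called, without WT LPL replicate 2, 2 were, and without WT tissue replicate 1, 1 was.

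Alpha-defensins, the main peptides of the same granules, were lower in IELs as well. Of 27 alpha-defensin genes in the files 25 could be tested, and 18 were lower in IELs than in LPLs and 19 lower in IELs than in tissue, with medians of -2.09 and -1.83. Defa2 fell by 3.64 on the log2 scale in IELs against LPLs (SE 0.59, edgeR adjusted p = 0.00387). Between LPLs and tissue 2 of the 25 were higher and 0 lower, beside 27.3% and 28% of all genes, and the median was -0.05. Of 13 genes known for roles in the fate, position or function of Paneth cells, 6 were lower in IELs than in LPLs, beside 7.92% of all genes. Among the 6 were the secretory factor genes Atoh1 (log2 difference -0.99, adjusted p = 0.00132) and Spdef (-1.44, adjusted p = 0.00665). Of the same 13, 8 were higher in LPLs than in tissue, beside 27.3% of all genes. They were led by Sox9, a factor that Paneth cells require (1.97, adjusted p = 0.000536). The Wnt effector gene Tcf7l2 was lower (-1.39, adjusted p = 0.00156), 1 of the 13, beside 28% of all genes. Of 9 goblet cell genes, 4 were lower in IELs than in LPLs, beside 7.92% of all genes, and 5 did not pass. Enterocyte genes went the other way, with 8 of 9 higher in IELs than in LPLs, beside 11.5% of all genes, 0 lower and a median of 2.72.

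Other antimicrobial genes were set beside the 7 in the comparison of LPLs with tissue, where 0 of the 7 were called. Of 12 tested, 8 were lower in LPLs and 0 higher, beside 28% of all genes lower and 27.3% higher. Among the 8 were the bactericidal-protein gene Pglyrp1 (log2 difference -1.56, edgeR adjusted p = 0.00132) and Lypd8 (-1.23, adjusted p = 0.00255). In IELs against LPLs, 2 of the 12 were lower, beside 7.92% of all genes. The lectin gene Reg3a (2.36, adjusted p = 0.0149) was higher, 1 of the 12, beside 11.5% of all genes.

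The comparison of KO with WT is the one the design centres on, and no member passed the test in any preparation. By edgeR 0 of the 7 genes and 0 of 14716 genes (0%) were called in IELs, in LPLs or in tissue, and every adjusted p of a member was 1. At an unadjusted p under 0.05 there were 0 of the 7 in each preparation, and 120 genes of all in IELs, 448 in LPLs and 463 in tissue. That fit did not use the replicate number, and a fit with it as a block is given in the last section. DESeq2 called 0 of the 7 in each preparation, and 1 gene of all in IELs, 1 in LPLs and 6 in tissue.

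The intervals of the fit without the replicate number were wide, so sizeable differences could be missed by it at this number of libraries. Its spread was pooled over the 6 groups. The IEL replicates of Mptx1 lay closer together (1.05-fold apart in KO and 1.42-fold in WT) than its replicates in tissue or LPLs. In IELs the log2 difference of KO against WT was 1.62 for Ang4 (SE 1.06, 95% interval -0.77 to 4), 1.6 for Mptx1 (SE 1.61, -2.03 to 5.22) and 0.9 for Mptx2 (SE 0.58, -0.41 to 2.22). It was 0.41 for Itln1, 0.28 for Mmp7, -0.04 for Lyz1 and -0.01 for Pla2g2a. In LPLs all 7 values were above 0, between 0.1 for Lyz1 and Pla2g2a and 0.73 for Mptx1. In tissue they lay between -0.37 for Mptx2 and 0.63 for Mptx1.

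**Figure D3:**
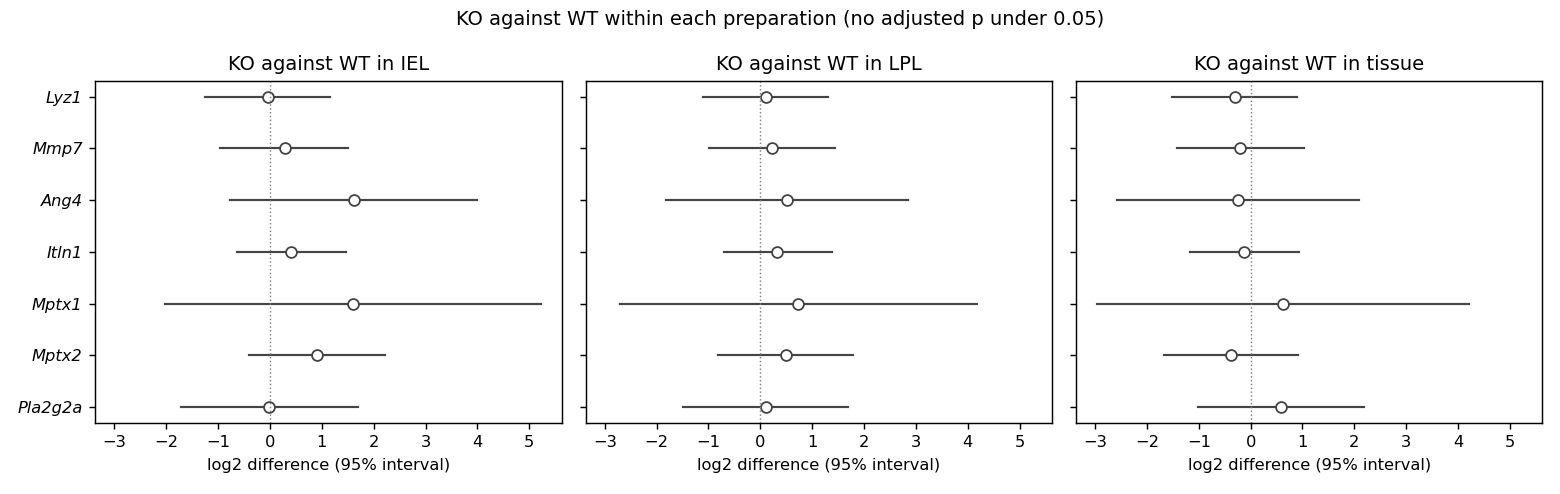
Log2 difference of KO against WT (points) with its 95% interval (lines) in each preparation, from edgeR. Every interval crosses 0, and the values farthest from 0 are those of Ang4 (1.62) and Mptx1 (1.6) in IELs.

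By position of the libraries, Mmp7, Ang4, Itln1, Mptx1 and Mptx2 had both KO IEL libraries above both WT IEL libraries, 5 of the 7, beside 14.8% of all genes. Lyz1 and Pla2g2a overlapped. In LPLs 0 of the 7 were so placed, beside 9.89% of all genes above and 8.62% below. In tissue Mmp7 had both KO libraries below both WT libraries, 1 of the 7 beside 12.3% of all genes, and 0 had both above, beside 13.2%. These counts do not pair libraries by replicate number. Within equal numbers, KO was above WT at both numbers in LPLs for Mmp7, Ang4, Itln1, Mptx1 and Mptx2. In tissue KO was below WT at both numbers for Mmp7, Ang4, Itln1 and Mptx2. The remaining genes had both signs. The labels do not say what equal numbers share, and the share of all genes so placed is not given here. Among the alpha-defensins in IELs, 8 of 25 had both KO libraries above both WT libraries and 3 had both below. Over all genes in IELs the shares were 14.8% above and 12.3% below.

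The other gene lists were not placed alike in the IEL libraries, and by edgeR 0 of their genes were called. Both KO libraries were above both WT libraries for 5 of 9 enterocyte genes and below for 0. They were above for 0 and below for 3 of the 13 Paneth cell regulators, and above for 0 and below for 3 of 6 myeloid genes. Of 5 proximal genes they were above for 0 and below for 2. Of 9 goblet cell genes they were above for 2 and below for 0, and of 12 other antimicrobial genes above for 3 and below for 1. For 8 stem cell genes and 8 pan-epithelial genes both counts were 0. The shares over all genes were 14.8% above and 12.3% below. The summed level of 9 enterocyte genes was 20270 to 22310 CPM in KO IELs, against 13560 to 18990 CPM in WT IELs, with 0 of the 9 at 0 reads. The alpha-defensin sum was 2381 to 2399 CPM in KO IELs and 1479 to 2229 CPM in WT IELs, with up to 2 of the 27 genes at 0 reads in any IEL library. The T cell sum overlapped, at 636.6 to 1379 CPM in KO IELs and 501.7 to 2015 CPM in WT IELs. Their part in the placement of the 5 genes was not tested.

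The difference between preparations in the effect of genotype was tested as an interaction. For IELs minus tissue it was 1.86 for Ang4 (SE 1.47), 1.28 for Mptx2 (SE 0.82) and 0.47 for Mmp7 (SE 0.77) on the log2 scale. In the 3 interactions 0 of the 7 genes were called (0% of all genes), 0 passed at an unadjusted p under 0.05 and DESeq2 called 0. All adjusted p-values from edgeR were 1. Leaving out WT tissue replicate 1 took the value for Ang4 to -0.04.

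Set against the alpha-defensin reads of the same library, the 7 genes differed in how far they ranged. Mptx2 had 43.9 and 52.1 reads per 1000 alpha-defensin reads in KO IELs, 29.7 and 35.4 in WT IELs, and 36.9 to 53.0 in the 8 LPL and tissue libraries. Over the 12 libraries its highest value was 1.78-fold above its lowest, beside 2.27-fold for Mmp7, 2.32-fold for Itln1 and 3.13-fold for Lyz1. Ang4 had 196.4 and 299.5 reads per 1000 in KO IELs and 60.8 and 133.2 in WT IELs, and over the 12 libraries its range was 11.9-fold. Mptx1 had 5.49 and 5.73 in KO IELs and 2.47 and 2.33 in WT IELs. On this scale Ang4, Mptx1 and Mptx2 kept both KO IEL libraries above both WT IEL libraries, whereas Itln1 overlapped, at 287.6 and 313.5 in KO IELs and 301.8 and 285.4 in WT IELs, and so did Mmp7, at 20.3 and 20.0 in KO IELs and 24.5 and 19.4 in WT IELs. These ratios were not tested.

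**Figure D4:**
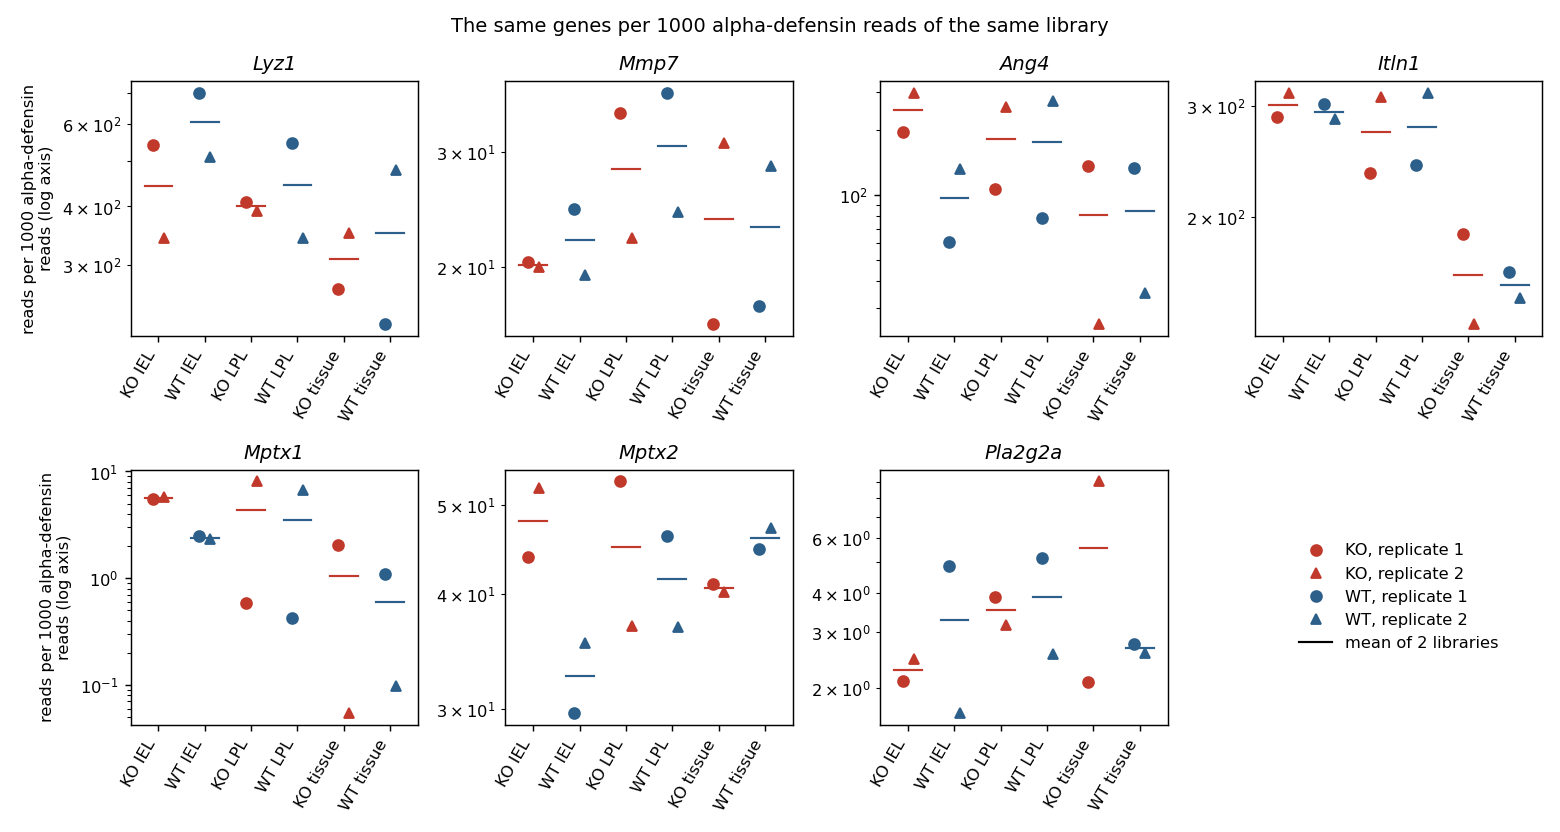
Reads of each gene per 1000 alpha-defensin reads of the same library, on a log axis. Red marks KO, blue marks WT, circles are replicate 1, triangles are replicate 2 and bars are means of 2 libraries. Mptx2 stays between 29.7 and 53.0 in all 12 libraries, while Ang4 and Mptx1 spread widely.

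Ang4 and Mptx1 differed between replicate numbers in tissue, and Mptx1 also in LPLs, by more than between genotypes. In IELs it was the reverse for Mptx1, whose replicates were 1.05-fold apart in KO and 1.42-fold apart in WT. In tissue, replicate 1 was far above replicate 2 for both genes and both genotypes. For Mptx1 the fold was 63.1 in KO tissue (exact 95% interval 17.1 to 526) and 19.2 in WT tissue (8.53 to 53.4), counting error only. In LPLs the order of Mptx1 was the reverse, replicate 2 being 7.38-fold above replicate 1 in KO and 7.59-fold in WT. Lyz1, Mmp7, Itln1, Mptx2 and Pla2g2a were higher in LPL replicate 1 of both genotypes. Replicate 2 of tissue also differed from replicate 1 in other genes. The Y-linked gene Ddx3y was at 38.7 CPM in KO tissue replicate 2 and 34.0 CPM in WT tissue replicate 2, and at 0.109 CPM and 0 CPM in replicate 1. The proximal factor gene Gata4 was at 1.68 CPM in KO and 1.49 CPM in WT in replicate 2, against 48.9 CPM in KO and 22.9 CPM in WT in replicate 1. Their part in the levels of Ang4 and Mptx1 was not tested.

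The likeness of the 7 genes to one another is given as a description over 12 libraries, several of which share a preparation. Pearson's r of log2 CPM was 0.931 for Lyz1 with Mmp7, 0.925 for Mmp7 with Mptx2 and 0.785 for Ang4 with Mptx1. Itln1 had 0.817 with Ang4, 0.843 with Mptx2, 0.798 with Mmp7, 0.77 with Lyz1 and 0.617 with Pla2g2a, and Ang4 had 0.568 with Mptx2. Mptx1 and Mptx2 had r = -0.034, although their upstream sequences were alike. After the mean of each preparation was removed, r was 0.862 for Lyz1 with Mmp7, 0.855 for Ang4 with Mptx1, 0.863 for Itln1 with Mptx2, 0.812 for Ang4 with Itln1, 0.375 for Mptx2 with Pla2g2a and 0.093 for Mptx1 with Mptx2.

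**Figure D5:**
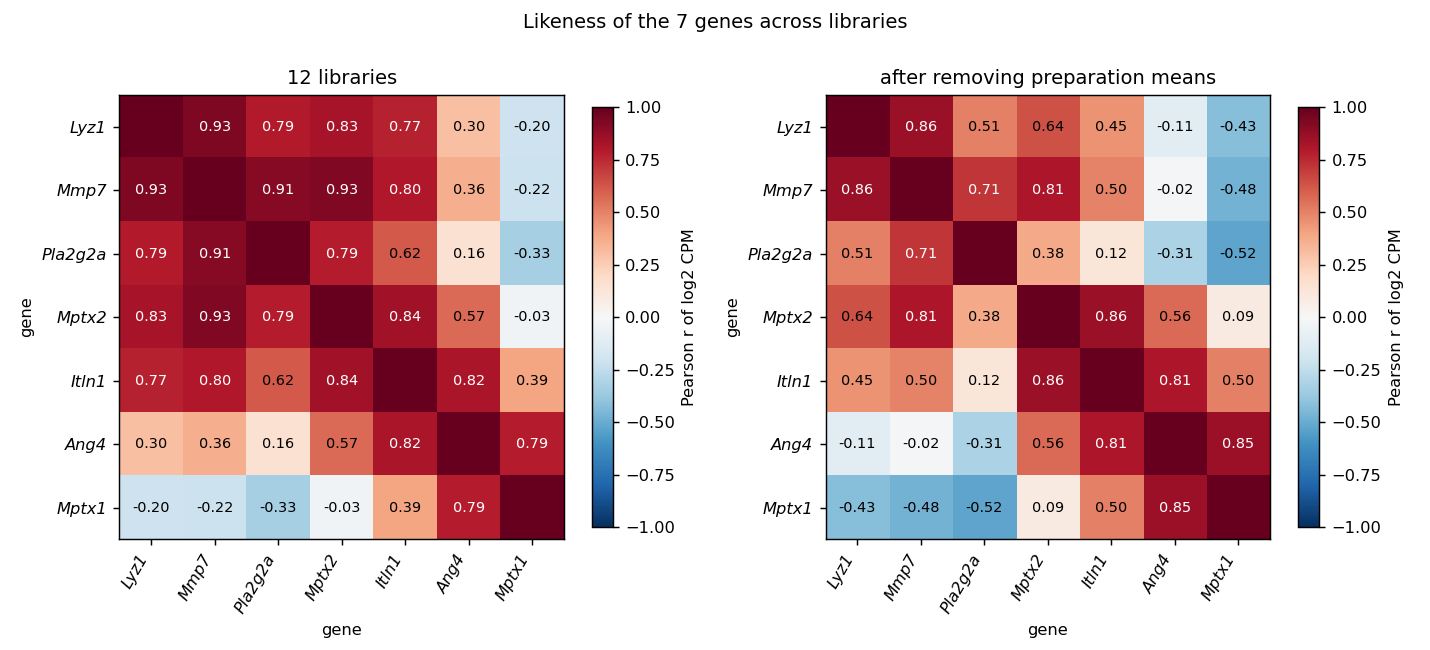
Pearson r of log2 CPM (prior 0.5) between the 7 genes over 12 libraries, without (left) and with (right) removal of the preparation means. Lyz1, Mmp7, Pla2g2a and Mptx2 form a block of high values in the left panel, and Ang4 is high with Itln1 and Mptx1. The block is not sharply set off, since Itln1 is high with Lyz1, Mmp7 and Mptx2 as well as with Ang4.

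Among 9012 genes with a mean of at least 10 CPM, those outside the 7 whose pattern was most like each member were as follows. Mptx2 was most like the alpha-defensin genes Defa30 (r = 0.975), Defa24 (0.958) and Defa3 (0.949), and Itln1 was most like Defa26 (0.972), Defa40 (0.954) and Slc25a35 (0.945). Mmp7 was most like Pla2g2f (0.96), Sar1a (0.95) and Ccl6 (0.946), and Lyz1 was most like Ccl6 (0.935), Igkv8-30 (0.907) and Igkv6-23 (0.904). Pla2g2a was most like Pla2g2f, a phospholipase gene of the same cluster on chromosome 4 (0.98), then Ttc39a (0.951) and Ckap4 (0.944).

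Ang4 was most like Pnliprp2, a pancreatic lipase-related gene (r = 0.99), Gsdmc3 (0.94) and Gsdmc2 (0.936), which encode gasdermin C proteins. Mptx1 was most like Dffa (0.927), Miga1 (0.92) and Gsdmc4 (0.917). Pnliprp2 had 120.1 and 150.9 CPM in KO IELs and 27.4 and 67.5 CPM in WT IELs. It had 226.5 and 335.9 CPM in KO LPLs and 147.4 and 268.6 CPM in WT LPLs. In tissue it had 215.1 and 22.6 CPM in KO and 243.5 and 33.8 CPM in WT, so it was low in replicate 2 of tissue like Ang4. After removal of the preparation means Pnliprp2 was still first for Ang4 (r = 0.993), while the genes nearest to Mptx1 changed to Rhot2 (0.984), Pigq (0.978) and Tbc1d13 (0.973).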

How the data were processed

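Gene counts came from 12 deposited tables of whole-number read counts, 1 per library, made by the authors. Reads were aligned with HISAT2, per the file headers, whereas TopHat and DESeq are named, with featureCounts and the build mm10, in the submitters' processing notes; strand, multi-mapping and annotation settings are not given in the sources used here. Of 27179 Entrez IDs, 25275 had a symbol in RefSeq (99.2% of reads). Depth was 10186522 to 13620975 reads per library, which with 2 libraries per group limits the precision.

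edgeR 4.0.16 (TMM, filterByExpr, quasi-likelihood test) fitted 12 libraries as 6 groups, leaving 14716 genes and 6 residual degrees of freedom, with Benjamini-Hochberg adjustment over all genes at 0.05. Preparation contrasts average both genotypes. Levels are TMM-scaled CPM computed from the deposited counts; without exon lengths, levels are not compared between genes. Likeness used log2 CPM with a prior of 0.5, and the 3 genes with the highest r are named. Of each other list, genes among the 4 with the smallest p may be named. Alternatives were RLE factors, pan-epithelial scaling, removal of pancreas genes, no filter, DESeq2 1.42.0, a replicate block, single preparations and leaving out each library. Scripts were tested on simulated data. The members and lists were chosen with earlier results of these data known. Upstream sequences came from RefSeq (GRCm38.p6, 6 of 7 members), aligned with Biopython 1.88.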

Additional observations from a re-analysis of the deposited data

Results flagged for a closer look

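Mmp7 was placed on opposite sides in 2 preparations. Both KO libraries lay above both WT libraries in IELs (log2 difference 0.28), a placement that 14.8% of all genes had. Both lay below in tissue (-0.2), as did 12.3% of all genes. The interaction was 0.47 (SE 0.77, edgeR quasi-likelihood test, adjusted p = 1), so the difference between the preparations did not pass the test. Leaving out each library in turn kept both directions.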

How the results depend on the processing

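RLE size factors, removal of pancreas genes and no filter on low counts kept each of the 45 member values on its side of 0 and of the threshold, as did fits of single preparations for the 21 values of KO against WT, except the value near 0 of Pla2g2a for KO against WT in IELs (0.01, 0.01 and 0 under the first 3). DESeq2 called 5 members in IELs against tissue and gave 0.01 for Pla2g2a in IELs. It called 6, 1 and 1 genes of all for KO against WT in tissue, LPLs and IELs. Pan-epithelial scaling left 0 members called in IELs against tissue (11275 genes of all). It called 4 in LPLs against tissue (9209 genes of all higher and 1489 lower). It turned KO against WT in LPLs to -0.19 for Lyz1, -0.21 for Pla2g2a and -0.06 for Mmp7, and IELs against tissue to 0.39 for Itln1, 0.27 for Lyz1 and 0.27 for Ang4. It moved the median of all genes, by construction relative to epithelial transcripts.

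The replicate number as a block was an alternative because the labels do not say what equal numbers share; with 2 libraries a group, deviations of same-numbered KO and WT libraries correlated at r = 0.668 in tissue, 0.347 in LPLs and 0.532 in IELs. With the replicate block 6 members were called in IELs against tissue, 4 in LPLs against tissue and 7 in IELs against LPLs, Ang4 and Mptx1 among them, with 5731 genes of all in IELs against LPLs. It turned Mptx2 and Pla2g2a in LPLs against tissue to -0.01 each and Pla2g2a in IELs to 0.04, and called no member for KO against WT (Ang4 in IELs 1.82, adjusted p = 0.562). At an unadjusted p under 0.05 there were 1, 2 and 3 of the 7 in tissue, LPLs and IELs. The share of all genes at that level with the block is not given here, so these counts have no background.

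Leaving out each library gave 0 to 3 genes called for KO against WT in tissue (3 without KO tissue replicate 1) and 0 to 4 in LPLs (4 without WT LPL replicate 2). Members called ranged over 2 to 4 for IELs against tissue, 0 to 2 for LPLs against tissue and 1 to 5 for IELs against LPLs, where all genes called ranged over 1283 to 2877. Ranges that crossed 0 for KO against WT in tissue were -0.94 to 0.41 for Itln1, -0.89 to 0.02 for Mptx2, -4.41 to 3.93 for Mptx1, -2.67 to 1.65 for Ang4 and -0.25 to 1.08 for Pla2g2a. In LPLs they were -0.36 to 1.33 for Mptx2, -1.32 to 2.81 for Mptx1, -0.53 to 1.21 for Lyz1, -0.61 to 1.47 for Pla2g2a and -0.7 to 1.28 for Mmp7. In IELs they were -0.37 to 0.23 for Lyz1 and -0.37 to 0.56 for Pla2g2a. Between preparations they were -0.18 to 2.81 for Mptx1 and -1.42 to 0.35 for Ang4 in IELs against tissue, and -0.31 to 0.39 for Mptx2 and -0.49 to 0.64 for Pla2g2a in LPLs against tissue. The interaction of Ang4 ranged from -0.04 to 4.29. With 1 library left in a group, its spread is assumed to be that of the others. The cause of these changes was not tested. Of 42 group levels, 5 moved by more than 1 SD in CPM without TMM scaling. With 2 libraries per group, p-values rest on the pooled spread.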
